A study of Mus musculus with 28 samples.

Results

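The genes described here are the cadherins and protocadherins of mouse hippocampal CA1, chosen by name: every gene in the deposited count tables whose symbol is Cdh followed by a number, or begins with Pcdh. This gave 87 of the 14711 genes in the joined tables. Of the 87, 30 were nonclustered genes with a locus of their own, and 57 belonged to the protocadherin clusters of chromosome 18, with 14 Pcdha, 21 Pcdhb and 22 Pcdhg genes. The tables listed 83 of the 87 genes for every library, and 80 were above 0 in every library. In at least 1 comparison 84 passed the filter on low counts, all but Cdh17, Cdh26 and Pcdh12. Cdh22, Cdh23, Pcdh11x, Pcdh15 and Pcdhb1 were not analysed here.

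Cadherins are calcium-dependent adhesion proteins that span the membrane and bind partners of the same or a related kind on the facing cell. Classical cadherins hold the actin cytoskeleton through catenins. Type I members such as N-cadherin (Cdh2) are spread broadly over synapses, whereas type II members mark particular neuron types and their connections. Delta protocadherins adhere weakly and signal to actin through their cytoplasmic tails. The clustered protocadherins are chosen in combinations by single neurons and let a neuron tell its own branches from those of others.

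The libraries come from RiboTag mice, in which Cre recombinase removes a stop cassette and leaves ribosomal protein Rpl22 with an HA tag, so that an anti-HA antibody pulls down ribosomes of the Cre cells with the mRNA they hold. All mice were C57BL/6 and 3 to 4 weeks old. They carried 1 copy of LSL-Rpl22-HA with 1 copy of either CaMK2a-Cre, a driver for forebrain excitatory neurons, or PV-Cre, a driver for parvalbumin interneurons. Each line received an intraperitoneal injection of kainic acid (KA), a glutamate receptor agonist that drives seizure-like firing, or of PBS, and CA1 was dissected 6 h later by the labels. The column names of the deposited tables mark the PBS groups as the start of the time course instead, and the sources used here do not settle which applies. Every pool gave an immunoprecipitate (IP) and an input taken from the same lysate before precipitation. The 8 groups are therefore the IP and the input of each line after each treatment, with 3 pools of 4 mice for CaMK2a and 4 pools of 9 to 10 mice for PV. Amplification started from 20 ng of RNA for CaMK2a and 2.5 ng for PV, so line cannot be told apart from RNA amount and pool size.

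The 28 libraries held 6061405 to 15847462 counts each. After PBS the CaMK2a IP held more of 7 of 8 CA1 pyramidal markers than its input and less of 9 of 9 PV interneuron markers. The PV IP held more of 8 of 9 PV markers and less of 8 of 8 pyramidal markers than its input. Summed PV markers were 4178 to 5519 CPM in that IP and 1174 to 1362 in its input. The PV IP was not free of other cells. Its summed pyramidal markers were 4356 to 5438 CPM against 9183 to 9994 in the input, and its astrocyte markers 4640 to 6352 against 9048 to 11107. Its oligodendrocyte markers, at 3506 to 5390 against 4831 to 6641, overlapped the input. All 7 astrocyte markers tested were lower in the IP than in the input of both lines, and of 6 oligodendrocyte precursor markers 6 were lower in the CaMK2a IP and 4 in the PV IP. PV replicate 4 stood apart from replicates 1 to 3 in the IP and input groups of that line. In these bulk samples, fewer cells of a type and less RNA per cell cannot be told apart.

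Pcdh8 rose after KA in both lines and both fractions, by more than any other member tested. Pcdh8, also called arcadlin, is a delta-2 protocadherin whose mRNA is known to follow neuronal activity and whose protein draws N-cadherin away from synapses. Its deposited model (mm10) spans chr14:79766772-79771312 on the minus strand, with 3 exons. Its levels in CPM (counts relative to the library total, scaled by the TMM method) in the CaMK2a IP were 9.32, 10.4 and 12.1 after PBS and 237, 231 and 269 after KA. In the CaMK2a input they were 30.4, 24.7 and 26.6 after PBS and 464, 395 and 402 after KA. The PV IP gave 18.3, 17.5, 27.6 and 19.2 CPM after PBS and 151, 128, 150 and 145 after KA. The PV input gave 19.6, 15.0, 22.0 and 23.2 CPM after PBS and 244, 232, 282 and 397 after KA. No KA library overlapped a PBS library of the same group pair. The fold changes were 23.4 in the CaMK2a IP, 15.4 in the CaMK2a input, 6.84 in the PV IP and 14.1 in the PV input, and the adjusted p-values from edgeR's quasi-likelihood test with Benjamini-Hochberg adjustment over all genes were 3.4e-08, 6.0e-14, 4.5e-07 and 7.9e-07. These calls held under every alternative tried, with log2 fold changes of 4.45 to 4.65 in the CaMK2a IP and 2.70 to 2.94 in the PV IP. The counting is not stated to use strand, and 436 bases of Pcdh8 exon overlap an exon of Gm9748 on the opposite strand.

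Pcdh8 also differed between the lines. On the log2 scale its KA effect was 4.55 ± 0.13 (SE) in the CaMK2a IP and 2.77 ± 0.22 in the PV IP, and the difference of the effects was 1.74 ± 0.26 (adjusted p = 8.1e-04, edgeR, all 8 groups in 1 fit). It was the only one of 83 members whose KA effect differed between the IPs, where 0.271% of all genes were called in either direction. DESeq2 and the fit with a replicate block each called 2 members, and 5 had an unadjusted p under 0.05. With PV replicates 1 to 3 only, 4 members were called, and 2 without PV KA IP replicate 2 or 4. The block fit in edgeR added Pcdh19, with a difference of -0.86 ± 0.16 (adjusted p = 0.0069). That block ties KA and PBS libraries of the same number, a pairing that is not established. Pcdh8 after PBS was lower in the CaMK2a IP than in its input, by a log2 value of -1.35 ± 0.14, whereas in the PV line the difference was 0.08 (adjusted p = 0.86).

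The 250 bases before the start site of 4 protocadherin genes are shown because their RefSeq start (GRCm38.p6) equals the start in the deposited gene models: Pcdh8, which rose in all 4 KA comparisons, Pcdh19 and Pcdh20, which fell in at least 2, and Pcdh10, which was called in none. Each sequence is on the gene's own strand, 5′ to 3′, ending at the base before the start, and capitals mark motif matches. RefSeq windows were found for 19 of the 87 members. The windows shown are chr14:79771313-79771562 (minus strand) for Pcdh8, chrX:133688994-133689243 (minus) for Pcdh19, chr14:88471397-88471646 (minus) for Pcdh20 and chr3:45378148-45378397 (plus) for Pcdh10.
Pcdh8: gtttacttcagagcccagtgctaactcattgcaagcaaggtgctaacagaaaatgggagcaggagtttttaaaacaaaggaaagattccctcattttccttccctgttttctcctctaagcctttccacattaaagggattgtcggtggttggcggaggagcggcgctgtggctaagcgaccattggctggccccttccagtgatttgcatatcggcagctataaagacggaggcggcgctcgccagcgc
Pcdh19: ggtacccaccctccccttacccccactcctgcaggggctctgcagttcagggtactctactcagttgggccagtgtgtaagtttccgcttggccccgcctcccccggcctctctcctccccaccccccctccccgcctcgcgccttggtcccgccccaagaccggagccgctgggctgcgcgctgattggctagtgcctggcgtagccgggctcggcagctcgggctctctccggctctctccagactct
Pcdh20: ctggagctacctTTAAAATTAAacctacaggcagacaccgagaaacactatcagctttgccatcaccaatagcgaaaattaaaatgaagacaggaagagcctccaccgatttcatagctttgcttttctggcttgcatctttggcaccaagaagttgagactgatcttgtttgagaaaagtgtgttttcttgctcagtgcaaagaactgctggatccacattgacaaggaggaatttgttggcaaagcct
Pcdh10: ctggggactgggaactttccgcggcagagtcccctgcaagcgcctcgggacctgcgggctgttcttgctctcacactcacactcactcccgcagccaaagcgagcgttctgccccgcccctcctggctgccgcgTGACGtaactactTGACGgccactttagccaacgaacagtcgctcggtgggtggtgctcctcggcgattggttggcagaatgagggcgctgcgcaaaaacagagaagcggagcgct
Motifs searched on both strands were the cAMP response element (CRE, TGACGTCA), its shorter part TGACG, which every CRE holds, the AP-1 site TGANTCA, the EGR site GCGNGGGCG, the CArG box and the MEF2 site. The Pcdh8 and Pcdh19 windows held none of them. The Pcdh20 window held 1 MEF2 site, 238 bases before the start, and 2.92% of 32851 RefSeq windows of this length held one. The Pcdh10 window held TGACG at 116 and 103 bases before the start, a motif present in 17.8% of windows. An exon of 2610316D01Rik also lies in the Pcdh10 window.

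After KA, the CaMK2a IP had 8 higher and 16 lower members of 80 tested, beside 19.8% higher and 15.3% lower among all 10663 genes. The nonclustered members split 8 higher and 6 lower of 23. The 10 other lower members were all Pcdhb genes. In the CaMK2a input 9 of 82 were higher and 29 lower, beside 19.3% and 15.7% of all genes. There the nonclustered members split 8 higher and 7 lower of 25. In the PV IP 3 of 81 were higher and 0 lower, beside 4.05% and 0.801% of all genes. In the PV input 4 of 84 were higher and 1 lower, beside 8.21% and 3.36%, and with upper-quartile scaling 3 were higher and 3 lower. Over the 4 comparisons 9 nonclustered members rose at least once, 10 fell at least once and none did both, of 27 tested. The share of all genes over the 4 comparisons together was not computed, so nothing about the family is read from these counts.

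The CaMK2a IP count was 39 without KA IP replicate 1, 15 without KA IP replicate 3 and 14 without PBS IP replicate 1, and the CaMK2a input count was 58 without KA input replicate 2. The PV IP count was 1, the call of Pcdh8, without KA IP replicate 2 or 3 or without any 1 of the 4 PBS IP libraries. The PV input count was 9 without PBS input replicate 4, 13 without replicate 4 of both treatments and 16 with a replicate block. Such a block assumes that replicate numbers match across treatments, which is not established.

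Pcdh17, a delta-2 protocadherin known to recruit actin regulators to sites of contact between axons, rose in all 4 comparisons. It spans chr14:84443056-84537565. Its CPM in the CaMK2a IP was 235, 224 and 247 after PBS and 545, 380 and 465 after KA. The CaMK2a input gave 154, 161 and 158 after PBS and 409, 284 and 266 after KA. The PV IP gave 242, 274, 242 and 208 after PBS against 440, 411, 451 and 304 after KA. The PV input gave 271, 246, 274 and 161 after PBS and 501, 518, 514 and 331 after KA. The groups did not overlap in any of the 4 pairs, and replicate 4 was the lowest library of each PV group. The fold changes were 1.98, 2.03, 1.63 and 1.92, with adjusted p-values of 3.0e-04, 6.4e-06, 0.025 and 0.008 from edgeR. The PV IP call was lost without any 1 library other than KA IP replicate 4, with adjusted p-values up to 0.097.

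Cdh6, a type II cadherin at chr15:13028699-13176517, also rose in all 4. In the CaMK2a IP its CPM was 59.4, 51.3 and 56.1 after PBS and 152, 68.5 and 103 after KA. The CaMK2a input held 24.3, 20.0 and 28.3 against 52.3, 32.4 and 38.8. The PV IP held 20.2, 19.0, 12.2 and 18.1 CPM after PBS and 31.1, 43.6, 65.4 and 28.4 after KA. The PV input held 36.5, 43.9, 33.0 and 29.1 after PBS and 58.1, 61.6, 87.4 and 54.2 after KA. Each KA library lay above every PBS library of its pair, although the KA libraries spread widely. The log2 fold changes were 0.96 ± 0.23, 0.77 ± 0.18, 1.25 ± 0.32 and 0.85 ± 0.19 (SE), with adjusted p-values of 0.01, 0.0024, 0.029 and 0.013 from edgeR. In the PV IP the call was lost without any 1 library other than KA IP replicate 1 or 4, with adjusted p-values up to 0.14, and in the PV input the fit of all 4 PV groups gave 0.064.

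Further members rose in the CaMK2a line. The type II cadherin Cdh9, which acts at mossy fibre synapses onto CA3 neurons, rose by a log2 value of 1.05 ± 0.20 in the IP and 0.55 ± 0.19 in the input. The type I R-cadherin Cdh4 rose by 0.79 ± 0.18 and 0.55 ± 0.15. The delta-1 protocadherins Pcdh7 and Pcdh9 rose by 0.68 ± 0.10 and 0.87 ± 0.15 in the IP and by 0.52 ± 0.10 and 0.45 ± 0.11 in the input. The input call of Cdh9 was lost with upper-quartile scaling, in the fit of all 4 CaMK2a groups and without KA input replicate 1 or 2 or PBS input replicate 2 or 3, and that of Cdh4 without KA input replicate 1 or PBS input replicate 2. In the PV input Pcdh7, Pcdh9 and Cdh9 had log2 values of 0.48, 0.52 and 0.71 that missed the threshold, with adjusted p-values of 0.27, 0.06 and 0.077. With a replicate block the values were 0.46, 0.52 and 0.76, and the adjusted p-values 6.4e-05, 4.2e-06 and 3.3e-04.

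Cdh5 and Pcdh18 rose at low levels. Cdh5, the cadherin of endothelial junctions, had 8.74, 8.06 and 5.95 CPM in the CaMK2a input after PBS and 25.0, 14.6 and 22.7 after KA. In the PV input it had 2.14, 2.53, 4.45 and 8.08 CPM after PBS and 10.6, 8.27, 14.3 and 17.2 after KA. The log2 fold changes were 1.43 ± 0.22 and 1.5 ± 0.42, with adjusted p-values of 8.2e-05 and 0.04 from edgeR. The PV input call was lost with upper-quartile scaling, in the fit of all 4 PV groups and without any 1 library other than KA input replicate 2 or PBS input replicate 4. Over the same comparisons 4 of 7 endothelial markers rose and 1 fell in the CaMK2a input, where their summed level was 55.1 to 59.5 CPM after PBS and 82.1 to 89.1 after KA. In the PV input 1 of 7 rose, with sums of 43.8 to 60.6 and 57.9 to 80.7 CPM. No marker of the 7 was at 0 in a whole group, and their part in the Cdh5 result was not tested.

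Pcdh18, a delta-2 protocadherin, had 0.772, 0.515 and 1.17 CPM in the CaMK2a IP after PBS and 4.10, 1.78 and 2.04 after KA, which is 1.65 ± 0.50 on the log2 scale (adjusted p = 0.027, edgeR). Its input held 6.16, 7.88 and 4.76 CPM after PBS. The call was lost without KA IP replicate 1 or 3 or PBS IP replicate 1 or 2.

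**Figure D1:**
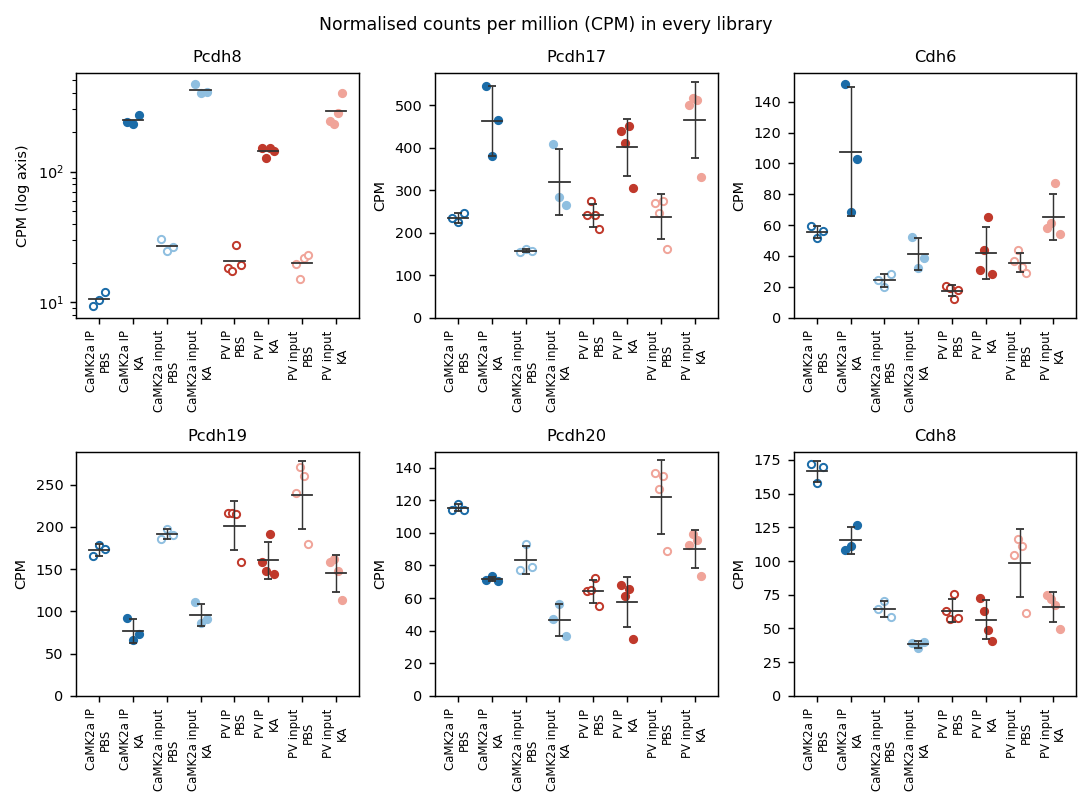
CPM of 6 members in each of the 28 libraries, by line, fraction and treatment (points are libraries, open after PBS and filled after KA, horizontal lines are means, bars are SD, and the Pcdh8 panel has a log axis without bars). Pcdh8, Pcdh17 and Cdh6 lie higher after KA in each pair of groups, and Pcdh19, Pcdh20 and Cdh8 lie lower in the CaMK2a pairs without overlap.

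Pcdh19 fell the most among the nonclustered members in the CaMK2a line. It is an X-linked delta-2 protocadherin (chrX:133582860-133688993) that binds N-cadherin, and loss of its human counterpart in part of the cells causes epilepsy. CPM in the CaMK2a IP was 165, 179 and 173 after PBS and 92.5, 65.5 and 73.0 after KA. Its CaMK2a input level was 186, 198 and 191 against 111, 86.1 and 91.4. The PV input fell from 241, 271, 260 and 180 to 158, 162, 148 and 113. In these 3 pairs every KA library was below every PBS library, and the log2 fold changes were -1.16 ± 0.13, -0.99 ± 0.11 and -0.74 ± 0.16 (SE), with adjusted p-values of 1.4e-04, 9.3e-07 and 0.011 from edgeR. The PV IP had 217, 216, 215 and 159 CPM after PBS and 158, 148, 191 and 144 after KA. Those groups overlapped, and the log2 value of -0.35 ± 0.18 did not pass (adjusted p = 0.35). The 3 calls held under every alternative tried.

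Pcdh20 (chr14:88464747-88471396) and the type II cadherin Cdh8 (chr8:99024394-99416488) fell in both CaMK2a fractions. Pcdh20 had 114, 118 and 114 CPM in the IP after PBS and 71.1, 73.4 and 70.6 after KA. The input of Pcdh20 had 77.1, 93.0 and 79.3 against 47.3, 56.3 and 36.7. Cdh8, known from synapses of glutamatergic neurons, had 172, 158 and 170 CPM in the IP after PBS and 108, 111 and 127 after KA. The input of Cdh8 had 64.2, 70.2 and 58.4 against 39.3, 35.5 and 39.9. None of these 4 pairs overlapped. The log2 fold changes were -0.68 ± 0.09 and -0.82 ± 0.14 for Pcdh20 and -0.52 ± 0.10 and -0.75 ± 0.12 for Cdh8, all 4 passing in edgeR with adjusted p-values up to 0.0024.

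In the PV input Pcdh20 and Cdh8 had log2 values of -0.46 and -0.60 that missed the threshold, with adjusted p-values of 0.1 and 0.087. With a replicate block the values were -0.45 and -0.58, with adjusted p-values of 7.3e-04 and 1.6e-04. The PV IP values were -0.19 for each.

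Other cadherins fell in 1 CaMK2a fraction. In the CaMK2a IP the type II cadherins Cdh7, Cdh10 and Cdh20 fell by log2 values of -0.78 ± 0.18, -0.47 ± 0.13 and -0.57 ± 0.19. The call of Cdh10 was lost without KA IP replicate 3 or PBS IP replicate 1 or 3. In the CaMK2a input Cdh2, Cdh11, Cdh12 and the GPI-anchored T-cadherin Cdh13 fell by -0.55 ± 0.10, -0.35 ± 0.11, -0.50 ± 0.17 and -0.34 ± 0.11. The Cdh11 call was lost without any 1 library other than KA input replicate 2, and the Cdh13 call in the fit of all 4 CaMK2a groups and without KA input replicate 2 or any 1 PBS input library. Whether the calls of Cdh20 and Cdh12 held under the alternatives was not examined. For Cdh2 in the CaMK2a IP the value was -0.46 ± 0.16 (adjusted p = 0.051), which passed under 8 of 14 alternatives, among them RLE factors (0.046), upper-quartile factors (0.022), DESeq2 (0.02) and the fit without KA IP replicate 2 (0.0012).

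Some abundant members were not called after KA. Pcdh1, a delta-1 protocadherin, averaged 673 ± 37.9 CPM (SD, n = 3) in the CaMK2a IP after PBS and 640.1 ± 149 after KA, and its log2 values in the 4 comparisons were -0.06, -0.02, 0.16 and -0.20. Pcdh10, the delta-2 member whose promoter window is shown above, averaged 204 ± 4.57 and 216 ± 53.3 CPM in the same groups, with log2 values of 0.09, -0.07, -0.04 and 0.01. With a replicate block Pcdh1 fell in the PV input, by -0.20 ± 0.07 (adjusted p = 0.024, edgeR).

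By family, the KA calls stood as follows in the CaMK2a IP, CaMK2a input, PV IP and PV input. Of 5 delta-2 protocadherins tested, 3, 2, 2 and 2 rose and 1, 1, 0 and 1 fell, with median log2 values of 0.99, 0.43, -0.04 and 0.14. Of 3 delta-1 protocadherins 2 and 2 rose in the CaMK2a fractions and 0 and 0 in the PV fractions. Of 11 or 12 type II cadherins 2, 3, 1 and 2 rose and 4, 3, 0 and 0 fell, with medians of -0.16, -0.02, -0.13 and 0.15. Among all genes 19.8%, 19.3%, 4.05% and 8.21% rose and 15.3%, 15.7%, 0.801% and 3.36% fell, and with so few genes in a family no share is set against these. The median over all genes lay between -0.02 and 0.01 in each comparison.

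Whether KA acted differently on the IP than on its own input was tested in each line. In the CaMK2a line 0 of 82 members were called by edgeR, 3 had an unadjusted p under 0.05 and DESeq2 called 0, where 0.103% of all genes were called. In the PV line 0 of 84 were called, 5 had an unadjusted p under 0.05 and DESeq2 called 0, beside 0.0253% of all genes. For Pcdh8 the IP effect minus the input effect was 0.56 ± 0.17 (adjusted p = 0.3) in the CaMK2a line and -1.01 ± 0.28 (adjusted p = 1) in the PV line. These differences carry the spread of 4 groups, and an effect of that size did not pass. The fits leave out the pairing of IP with input from 1 lysate. A replicate block also called 0 members in each line, but it ties KA and PBS libraries of the same number as well. No fit with a block for each lysate alone was made.

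The Pcdhb genes have 1 exon each and share no exon with each other in the deposited models. Whether reads were shared between similar Pcdhb genes was not tested. Summed over the 21 genes, they made 255.7 to 273.7 CPM in the CaMK2a IP after PBS and 176.4 to 184.5 after KA. In the CaMK2a input the sum was 190.5 to 203.0 after PBS and 121.3 to 138.4 after KA, and in the PV input 185.5 to 207.4 against 143.0 to 164.7. The groups were apart in those 3 pairs. In the PV IP they overlapped, at 134.8 to 208.5 after PBS and 152.4 to 170.6 after KA.

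Gene by gene, the fitted Pcdhb values after KA were negative for 21 of 21 in the CaMK2a IP, 20 of 21 in the CaMK2a input, 14 of 21 in the PV IP and 19 of 21 in the PV input. Their medians were -0.63, -0.53, -0.21 and -0.46 on the log2 scale, where the median over all genes lay between -0.02 and 0.01. In the CaMK2a IP 10 of 21 fell and in its input 8, together 12 different genes, beside 15.3% and 15.7% of all genes lower. In the PV IP and input 0 passed, beside 0.801% and 3.36% of all genes lower, and 0 and 7 had an unadjusted p under 0.05. The PV input count of 0 lower became 2 with DESeq2 and 3 with a replicate block. It was 2 with PV replicates 1 to 3 only and 1 without PBS input replicate 4. The Pcdhb genes lie in 1 cluster, and whether they moved independently of each other was not tested. The count of 10 became 4 without KA IP replicate 3, 3 without PBS IP replicate 1, 4 without PBS IP replicate 2 and 6 without PBS IP replicate 3, and the count of 8 became 5 without PBS input replicate 1. Pcdhb17, the most abundant by CPM in the CaMK2a IP after PBS, had 35.0, 35.1 and 42.4 CPM there and 24.9, 23.3 and 23.0 after KA, without overlap. It fell by -0.65 ± 0.13 in the IP and -0.73 ± 0.17 in the input (adjusted p = 0.0036 in each, edgeR). Pcdhb20 fell by -0.92 ± 0.17 in the IP, and Pcdhb19 by -0.49 ± 0.15 in the IP and -1.32 ± 0.27 in the input. The mean CPM of single Pcdhb genes ran from 2.47 for Pcdhb21 to 37.5 for Pcdhb17 in the CaMK2a IP after PBS, so the low ones carry few counts.

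**Figure D2:**
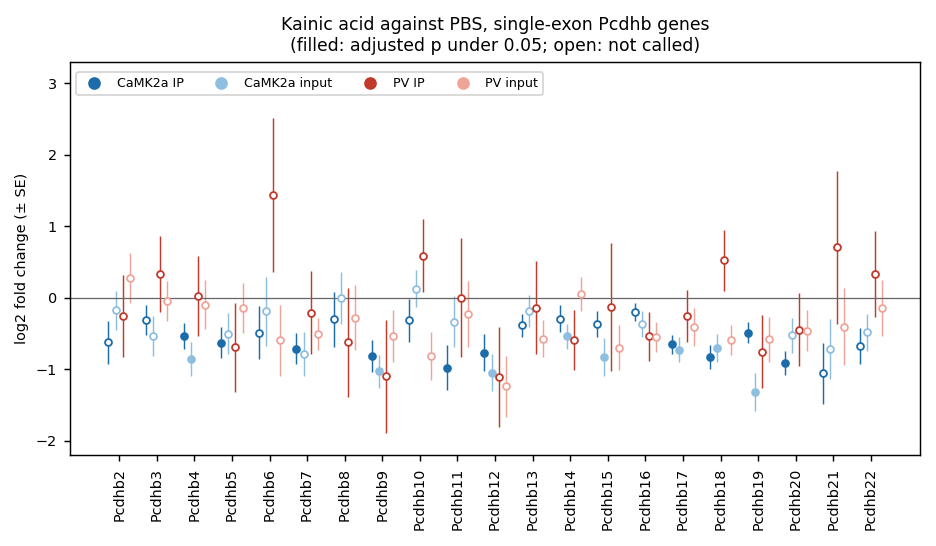
Log2 fold change after kainic acid against PBS (y axis, ± SE) for the 21 Pcdhb genes (x axis) in the IP and input of both lines, with filled points for adjusted p under 0.05. All 21 CaMK2a IP values lie below 0 and 10 are filled, beside 15.3% of all genes called lower there. No PV point is filled.

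Pcdha and Pcdhg genes are counted differently. In the deposited models each has 4 exons, of which the last 3 are shared by the whole cluster, and the counts show it. Within a library the coefficient of variation was 3.77 to 10.0% over the 14 Pcdha genes and 4.04 to 15.0% over the 22 Pcdhg genes. If the lowest count of a cluster is taken as its shared reads, these made 96.2 to 98.5% of the summed Pcdha counts and 90.8 to 97.0% of the summed Pcdhg counts. The 14 and 22 called or uncalled values are thus close to 1 measurement per cluster, repeated. The lowest count was therefore taken once as the shared part (an upper bound), and the remainder of each gene as the part from its own first exon (a lower bound).

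The shared Pcdha part was 280, 275 and 290 CPM in the CaMK2a IP after PBS and 303, 228 and 243 after KA. In the CaMK2a input it was 190, 184 and 175 after PBS and 149, 146 and 121 after KA. The input groups did not overlap, with a log2 value of -0.39 ± 0.10 (adjusted p = 0.0059, edgeR), and the 14 Pcdha genes counted as lower in that comparison carry this 1 signal. In the CaMK2a IP, where 0 of 14 were called with shared reads left in, 13 were lower without KA IP replicate 1. The shared Pcdhg part was 200, 187 and 220 CPM in the CaMK2a IP after PBS and 223, 223 and 204 after KA, and its KA change was not called in any comparison.

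The own parts of the C-type genes, which are not chosen at random but are expressed by type or stage, varied more. Pcdhgc3 had 15.3, 21.1 and 13.9 CPM in the CaMK2a IP after PBS and 35.3, 28.8 and 26.3 after KA. Its input had 94.5, 99.7 and 109 against 153, 135 and 154. With shared reads left in, it was the 1 Pcdhg gene called higher in that input, a count that became 22 without KA input replicate 2 and 0 with upper-quartile scaling or without any 1 of the other 5 libraries. Neither pair overlapped, and the own part changed by log2 values of 0.86 ± 0.19 (adjusted p = 0.0059) and 0.56 ± 0.10 (adjusted p = 4.7e-04) in edgeR. The own part of Pcdhgc5 rose in the CaMK2a input by 0.38 ± 0.13 (adjusted p = 0.031). The own part of Pcdhac2 in the CaMK2a input ran from 48.9 to 54.3 CPM after PBS and from 41.7 to 59.7 after KA, overlapping, with a log2 value of 0.004 (adjusted p = 0.98). Of genes at low own levels, Pcdhga2 fell in both CaMK2a fractions, by -0.78 ± 0.20 and -0.74 ± 0.20. By own parts, 1 Pcdhg gene rose and 3 fell in the CaMK2a IP, and 2 rose and 3 fell in its input. Of the Pcdha genes 1 fell in the IP and 0 were called in the input. In the main fits 19.8% of all genes rose and 15.3% fell in the IP, and 19.3% and 15.7% in the input.

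**Figure D3:**
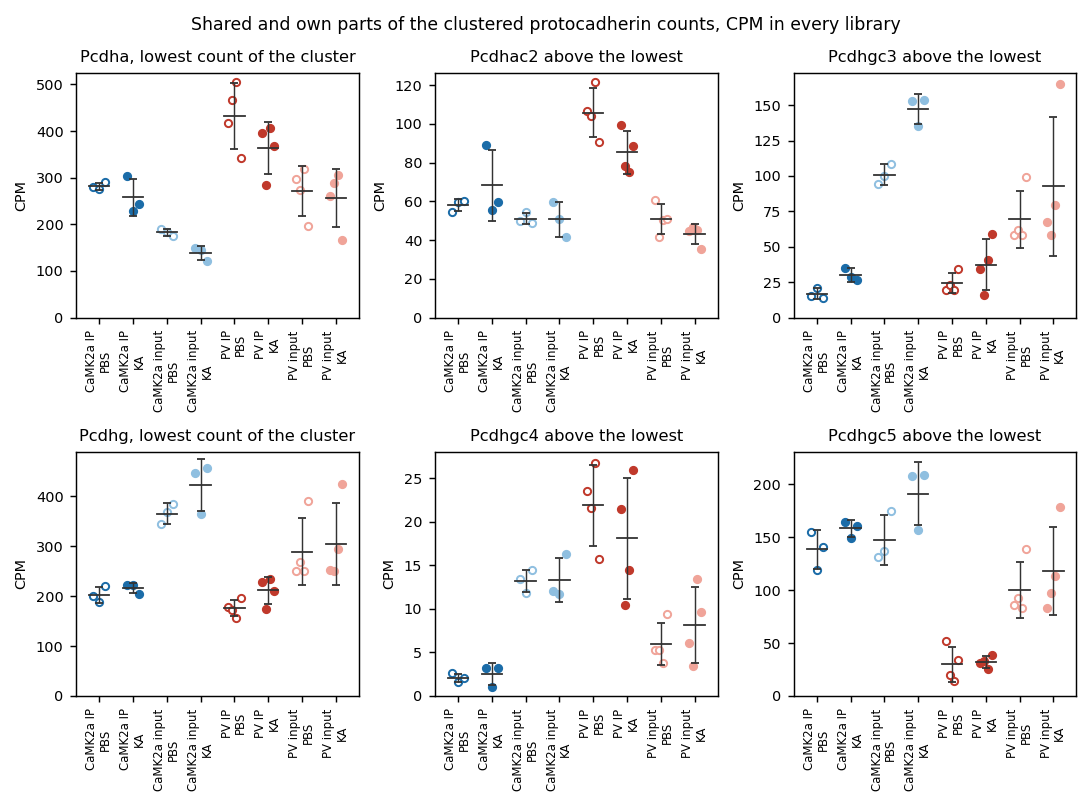
CPM of the shared and own parts of Pcdha and Pcdhg counts in each of the 28 libraries, by line, fraction and treatment (points are libraries, open after PBS and filled after KA, lines are means and bars SD). Pcdhgc4 lies at 15.7 to 26.8 in the PV IP after PBS and at 1.54 to 2.57 in the CaMK2a IP, and Pcdhgc5 at 14.5 to 51.9 and 119 to 155.

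IP against input asks which members the tagged neurons hold more or less of on ribosomes than the whole tissue. In the CaMK2a line after PBS 39 of 81 members were higher and 27 lower in the IP, beside 32.6% and 31.6% of all genes. Of 24 nonclustered members 14 were higher and 5 lower. After KA the counts were 31 and 27 of 81, beside 24.3% and 25.8%. In the PV line after PBS 19 of 82 were higher and 28 lower, beside 10.6% and 7.98%, and 5 and 6 of 25 nonclustered members. After KA they were 4 and 3 of 82, beside 6.85% and 4.11%, where a replicate block for the shared lysate gave 20 higher and 28 lower and the fit of all 4 PV groups 7 and 4. The counts include the cluster genes, which move as blocks. With shared reads split off, the CaMK2a counts were 27 higher and 13 lower after PBS and 17 and 13 after KA, and the PV count after PBS was 7 and 12.

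Type II cadherins made up 8 of the 14 higher nonclustered members of the CaMK2a IP after PBS. The family is a large part of the nonclustered members, with 11 of the 23 tested in the CaMK2a IP after KA. No excess of type II cadherins is therefore read from the 8. Cdh12, Cdh18 and Cdh8 were higher than in the input by log2 values of 1.55 ± 0.11, 1.54 ± 0.15 and 1.39 ± 0.07. Cdh6, Cdh7, Cdh10 and Cdh11 were higher by 1.23 ± 0.12, 1.11 ± 0.19, 1.08 ± 0.09 and 0.75 ± 0.06. Cdh5 was lower, by -3.42 ± 0.35, with 0.450 to 0.901 CPM in the IP and 5.95 to 8.74 in the input, as were all 7 endothelial markers, with a median of -2.63. Pcdh18, Cdh13 and Cdh19 were lower by -2.89 ± 0.35, -0.62 ± 0.09 and -1.14 ± 0.40. The Cdh19 call was lost in the fit of all 4 CaMK2a groups and without PBS input replicate 1 or 2 or PBS IP replicate 1 or 3.

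In the PV IP after PBS the higher nonclustered members were Cdh18, Cdh7, Cdh13, Cdh12 and Pcdh7, with log2 values of 2.24 ± 0.23, 1.45 ± 0.31, 1.07 ± 0.19, 0.94 ± 0.24 and 0.73 ± 0.21 against input. Cdh18 had 46.9, 89.1, 62.9 and 78.9 CPM in the PV IP and 12.5, 16.3, 15.3 and 16.2 in its input, with no overlap. Cdh24, Cdh6, Pcdh20, Cdh2, Cdh8 and Pcdh1 were lower, by -2.54 ± 0.74, -1.0 ± 0.23, -0.89 ± 0.17, -0.79 ± 0.13, -0.60 ± 0.20 and -0.54 ± 0.12. Cdh10 and Cdh11 had -0.60 and -0.44, which missed the threshold (adjusted p = 0.079 and 0.083) and passed with a replicate block (-0.64, adjusted p = 0.018, and -0.43, adjusted p = 0.0045).

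Of these PV calls, 3 depended on single libraries. Cdh8 was lost with no filter on low counts, in the fit of all 4 PV groups and without any 1 library other than PBS input replicate 4 or PBS IP replicate 3. Cdh24, with 0.169 to 1.96 CPM in the IP, was lost without PBS input replicate 1 or 2 or PBS IP replicate 3. Pcdh7 was lost without PBS input replicate 3 or PBS IP replicate 1, 2 or 3.

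The difference between the lines was tested itself, as PV minus CaMK2a in IP against input after PBS. Of 83 members 3 were higher in the PV line and 8 lower, beside 11.6% and 10.5% of all genes. The higher ones were Pcdh18, Cdh13 and Pcdh8, with differences of 3.14 ± 0.75, 1.67 ± 0.29 and 1.41 ± 0.27. The lower ones were Cdh24, Cdh6, Cdh8, Cdh10, Pcdh20, Cdh11, Cdh2 and Pcdhb6. Cdh6 and Cdh8 had -2.24 ± 0.38 and -2.01 ± 0.28, with adjusted p-values of 8.0e-05 and 3.6e-06 in edgeR. Cdh10, Pcdh20, Cdh11 and Cdh2 had -1.69 ± 0.30, -1.40 ± 0.27, -1.21 ± 0.28 and -1.03 ± 0.23. Cdh24 had -2.54 ± 0.90 and Pcdhb6 -2.99 ± 1.07, each a call lost without any 1 of 10 of the 14 PBS libraries. Pcdhb6 rested on few reads, with 0 to 21 counts per PV IP library after PBS. With a replicate block in edgeR Pcdh1 and Pcdh17 passed too, at -0.46 and -0.53 (adjusted p = 0.026 and 0.016). The block in this fit of 8 groups also ties KA and PBS libraries of the same number, a pairing that is not established. With PV replicates 1 to 3 only, 4 members were higher and 14 lower.

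Cdh13 and Cdh8 show the contrast by library. Cdh13 had 48.7, 45.5 and 59.2 CPM in the CaMK2a IP after PBS against 77.5, 81.0 and 79.8 in its input. In the PV IP it had 100.02, 150.5, 154.8 and 143.4 against 56.0, 68.0, 59.5 and 83.6. The IP was thus below the input without overlap in one line and above it without overlap in the other. Cdh8 had 172, 158 and 170 CPM in the CaMK2a IP against 64.2, 70.2 and 58.4, and in the PV IP 63.1, 56.7, 75.2 and 57.5 against 104, 117, 111 and 61.4, where IP and input overlapped through input replicate 4.

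For Pcdh18 the PV IP held 9.98, 9.39, 7.05 and 10.5 CPM and the CaMK2a IP 0.772, 0.515 and 1.17, with inputs of 7.31 to 8.55 and 4.76 to 7.88. Over the same difference between lines, 6 of 6 oligodendrocyte precursor markers, 7 of 9 microglial markers and 4 of 6 mural markers were also higher in the PV line, with medians of 2.36, 1.96 and 2.32. Their part in the Pcdh18 result was not tested.

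**Figure D4:**
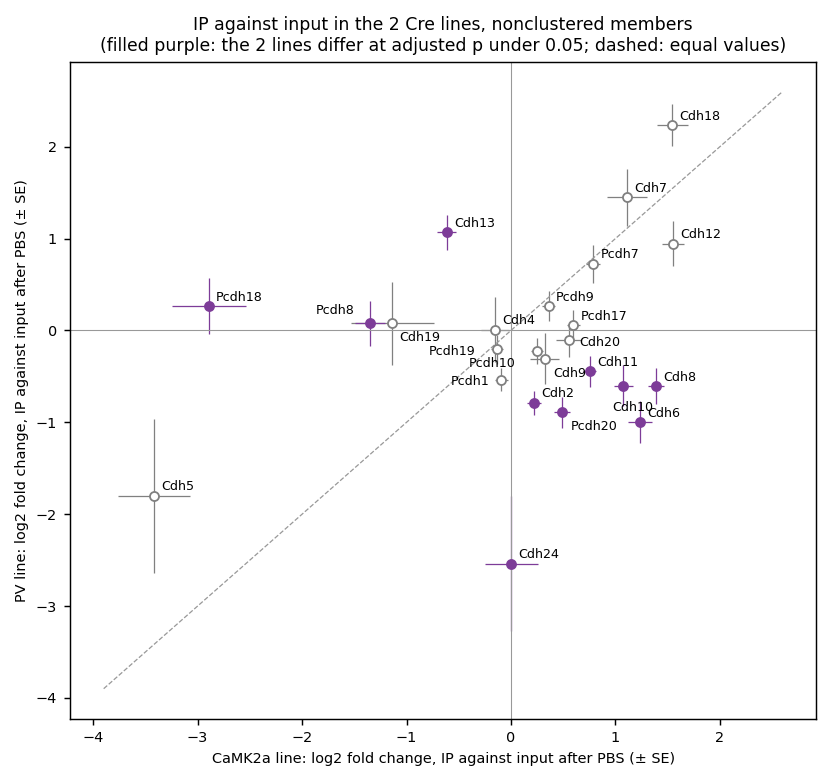
Log2 fold change of IP against input after PBS in the PV line (y axis, ± SE) against the same in the CaMK2a line (x axis, ± SE) for nonclustered members, with filled points where the lines differed at adjusted p under 0.05 and a dashed line of equal values. Cdh13 lies at -0.62 and 1.07, Cdh8 at 1.39 and -0.60 and Cdh6 at 1.23 and -1.0, while Cdh18 and Cdh7 are positive in both lines.

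In the clusters the shared Pcdha part was higher in the IP of both lines, by 0.64 ± 0.06 in CaMK2a and 0.70 ± 0.17 in PV, and the shared Pcdhg part was lower in both, by -0.83 ± 0.07 and -0.69 ± 0.17 after PBS. The differences between the lines were 0.00 and 0.09 and did not pass. The own parts of single genes did differ. Pcdhgc4, a gene needed for the survival of interneurons, had 23.5, 21.6, 26.8 and 15.7 CPM in the PV IP after PBS against 5.28, 5.28, 3.76 and 9.34 in its input. In the CaMK2a IP it had 2.57, 1.54 and 2.04 against 13.4, 11.9 and 14.4. Neither pair overlapped, and the log2 values were 1.90 ± 0.33 and -2.61 ± 0.23, with a difference between the lines of 4.48 ± 0.59 (adjusted p = 2.0e-06, edgeR). With the shared reads left in, the Pcdhgc4 value in the PV line had the opposite sign.

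Pcdhgc5 went the other way. It had 51.9, 19.9, 14.5 and 33.6 CPM in the PV IP after PBS against 85.9, 92.9, 83.1 and 139 in its input, and 155, 119 and 141 in the CaMK2a IP against 132, 137 and 175. The PV groups were apart and the CaMK2a groups overlapped. The PV value was -1.71 ± 0.34, and the difference between the lines was -1.70 ± 0.41 (adjusted p = 0.0028, edgeR). Pcdhac2 was higher in the PV IP than in its input by 1.09 ± 0.17, with a difference between lines of 0.83 ± 0.24 (adjusted p = 0.013). Pcdhgc3 was lower in the IP of both lines, by -2.60 ± 0.12 in CaMK2a and -1.48 ± 0.25 in PV, and the difference of 1.03 did not pass (adjusted p = 0.11).

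Levels between genes were compared per kilobase of exon. In the CaMK2a IP after PBS the order of nonclustered members was Pcdh1 at 63.7 ± 3.59 CPM per kb (SD, n = 3), Cdh11 at 49.9 ± 2.19, Pcdh9 at 44.3 ± 2.99, Pcdh17 at 22.2 ± 1.09 and Pcdh20 at 22.0 ± 0.402, of which Pcdh17 and Pcdh20 overlapped. In the PV IP it was Pcdh9 at 67.7 ± 14.6 (SD, n = 4), Pcdh1 at 37.7 ± 3.62, Cdh13 at 33.6 ± 6.19, Pcdh7 at 29.4 ± 6.32 and Cdh11 at 28.8 ± 4.16, where each from Pcdh1 on overlapped the next. After KA the highest in the CaMK2a input was Pcdh8, at 105 ± 9.41 CPM per kb, above Pcdh1 at 67.8 ± 1.37 without overlap.

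Genes that work with cadherins were read from 4 lists. Of the catenins and junction partners 4 of 19 rose and 5 fell in the CaMK2a IP after KA, 3 of 21 rose and 4 fell in its input, and 0 of 20 and 0 of 21 were called in the PV IP and input. Among all genes 19.8% rose and 15.3% fell in the CaMK2a IP and 19.3% and 15.7% in its input, and the shares were 4.05% and 0.801% in the PV IP and 8.21% and 3.36% in the PV input, against which all counts over the 4 lists are to be read. Vcl, which encodes vinculin, a link from catenins to actin, rose by 1.55 ± 0.27 in the CaMK2a IP. Of the protocadherin signalling partners, 3 of 17 rose and 6 fell in each CaMK2a fraction, 0 moved in the PV IP and 2 fell in the PV input. The median over each of these lists lay between -0.17 and 0.14.

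Among other cadherin superfamily members 2 of 13 rose and 2 fell in the CaMK2a IP, 2 and 3 of 14 in its input, 1 and 0 of 14 in the PV IP and 2 and 1 of 14 in the PV input. Dsc1, the desmosomal cadherin desmocollin 1, rose in all 4. Its level was 0 CPM in every CaMK2a input library after PBS and 3.37 to 6.15 after KA, and 0 to 0.0839 CPM in the PV IP after PBS and 3.01 to 6.30 after KA. Celsr2, a planar polarity cadherin, fell by -0.50 ± 0.10 in the CaMK2a IP and -0.58 ± 0.09 in its input. Of regulators of the clustered promoters, 3 of 15 rose and 2 fell in the CaMK2a IP, 1 and 4 in its input, and 1 and 0 in each PV fraction. Rest, a zinc finger repressor of neuronal genes, rose in all 4, by 1.62 ± 0.32, 1.06 ± 0.17, 1.54 ± 0.40 and 1.18 ± 0.22, with adjusted p-values of 0.0036, 9.1e-05, 0.032 and 0.0041 in edgeR. The PV IP groups of Rest overlapped, at 12.2 to 27 CPM after PBS and 16.8 to 87.3 after KA. Calls of genes on the 4 lists were not examined under the alternatives.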

How the data were processed

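Reads of 75 bp, single end, were aligned with BWA to mm10 (GRCm38) by the authors, and edgeR is named, per the submitters' processing notes, without versions. The deposited tables hold raw read counts per gene, computed by the authors, in files of genes higher and lower in each of their comparisons, which were joined per library. Strandedness is not given in the sources used here. Of 86 members found in the GENCODE gene models, 19 overlap an exon on the opposite strand, 6 of them nonclustered.

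edgeR 4.0.16 (quasi-likelihood test with TMM scaling, low genes removed by filterByExpr at a count of 10, Benjamini-Hochberg over all genes, threshold 0.05) was fitted on the 2 groups of each comparison, or on the 4 or 8 groups a difference of effects needs. Levels are CPM with TMM factors over all 28 libraries, of 6061405 to 15847462 counts. SE is the log2 fold change divided by the square root of F. The fit was tested on simulated data. Alternatives were DESeq2 1.42.0, other scaling factors, other filters, pooled fits, replicate blocks, libraries left out and, added after the data were seen, shared Pcdha and Pcdhg reads split off. R was 4.3.3 and Python 3.11.15.

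Replicate numbers pair IP with input because both come from 1 lysate. The main fits of IP against input leave this pairing out, and the replicate block takes it in. Between treatments, same-numbered PV input libraries had correlations of 0.16, 0.14, 0.14 and 0.62 in their deviations from the group mean. The highest was replicate 4, and KA replicate 2 lay closest to PBS replicate 1. In the PV IP the correlations were 0.05, 0.04, 0.05 and 0.36, and each KA library lay closest to the PBS library of its own number. In the CaMK2a input they were 0.10, 0.09 and 0.27. In the CaMK2a IP they were -0.07, -0.18 and 0.15. Pairing of treatments by number is thus not established in any group, and a block across treatments assumes it. Between IP and input, same-numbered CaMK2a libraries had correlations of 0.02, 0.05 and 0.13 after PBS and 0.26, 0.23 and 0.18 after KA. In the PV line they were 0.04, 0.08, 0.08 and 0.46 after PBS and 0.12, 0.13, 0.08 and 0.44 after KA. The pairing of IP with input rests on the shared lysate and not on these values. Named genes were those called with a mean of at least 1 CPM, up to 8 per direction (5 for differences of effects), beside a fixed list of members. Some further values after KA, such as those of Cdh12, Cdh20 and Pcdhb17, lie outside this rule. Their calls were not examined gene by gene under the alternatives. The members and lists were chosen with earlier results of these data known.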

Additional observations from a re-analysis of the deposited data

Results flagged for a closer look

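Of 72 groups of 4 libraries examined, for named members of the PV line, 6 held a library far from the other 3, and 5 of these were replicate 4. Chance gives such a library in about 1 in 20 groups. Replicate 4 was the low one for Pcdh7, at 181 CPM in the PV input after KA, 145 in the PV input after PBS and 257 in the PV IP after PBS. It was also low for Pcdh17 in the PV input after KA, at 331 CPM, and for Pcdh19 in the PV IP after PBS, at 159 CPM. For Cdh24 the PV IP after KA had replicate 1 high, at 3.48 CPM.

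In 12 cases an effect differed between the lines. The KA effect on Pcdh8 was larger in the CaMK2a IP than in the PV IP, by 1.74 on the log2 scale. In IP against input after PBS, as PV minus CaMK2a, the differences were 3.14 for Pcdh18, 1.67 for Cdh13 and 1.41 for Pcdh8. They were -2.99 for Pcdhb6, -2.54 for Cdh24, -2.24 for Cdh6, -2.01 for Cdh8, -1.69 for Cdh10, -1.40 for Pcdh20, -1.21 for Cdh11 and -1.03 for Cdh2. The calls of Pcdhb6, with 0 to 21 counts per PV IP library after PBS, and of Cdh24 were each lost without any 1 of 10 of the 14 PBS libraries. Line cannot be told apart from RNA amount and pool size in these differences.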

How the results depend on the processing

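The alternatives gave 5577 values for single genes and summed cluster levels. Of these, 5300 were counted as unchanged, 165 lost the call, 105 gained one, 2 reversed and 5, all summed levels of a cluster, moved. An unchanged single gene stayed on its side of the threshold, and kept its direction if it was called. The sign of an uncalled value could change, as for Pcdh1 in the CaMK2a IP after KA, from -0.25 to 0.08 over the alternatives. With shared cluster reads split off, added after the data were seen, Pcdhac2 in the CaMK2a input after KA went to 0.004 and Pcdhgc4 in the PV IP against input after PBS to 1.90, both from below 0. The split also moved the IP against input counts of members called to 40 (CaMK2a, PBS), 30 (CaMK2a, KA) and 19 (PV, PBS), by construction, since shared reads then count once. It moved the PV minus CaMK2a count to 18, with calls for own parts, among them Pcdhgc4, Pcdhgc5 and Pcdhac2. In the PV input after KA the count of 5 became 9 with DESeq2, 16 with a replicate block, 3 in the fit of all 4 groups and 13 with PV replicates 1 to 3 only. Upper-quartile factors gave 3 higher and 3 lower there, against 4 and 1. The PV IP against input after KA went from 7 to 48 with a replicate block and to 11 in the fit of all 4 groups. The difference of KA effects between the IPs went from 1 to 2 with DESeq2 or a block and 4 with PV replicates 1 to 3 only, and that of IP against input between the lines from 11 to 18 with these replicates. The cause of the changes with DESeq2, pooled fits, blocks and PV replicates 1 to 3 was not tested.

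With a replicate block the other counts were 19 (4 rather than 10 of them Pcdhb genes) and 40 in the CaMK2a IP and input after KA, 4 in the PV IP, 68 and 61 for CaMK2a IP against input after PBS and KA, 51 for PV after PBS, 15 for the difference between lines and 0 for each difference of KA effects between IP and input. Pairing of treatments by replicate number is not established in any group, so blocks across treatments rest on an assumption. Leaving out 1 library, the KA counts ran from 14 to 39 and 30 to 58 in the CaMK2a IP and input and from 1 to 4 and 4 to 9 in the PV IP and input. The count for the difference of KA effects between the IPs ran from 1 to 2. Upper-quartile factors moved the median of all genes to -0.126 and -0.146 in the CaMK2a IP against input comparisons. Low levels limit Cdh5, Cdh24, Pcdh18 and the less abundant Pcdhb genes, and replicate spread limits the PV IP. Pools of mice are the replicates, and intervals between animals are not given by these data.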
